A study of Mus musculus with 6 samples.

Results

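The Cyp2c cytochrome P450 genes of the mouse lie next to each other on chromosome 19, and 10 of them were considered: Cyp2c29, Cyp2c37, Cyp2c38, Cyp2c39, Cyp2c40, Cyp2c50, Cyp2c54, Cyp2c55, Cyp2c68 and Cyp2c70. The members were taken by name, as all probe sets whose platform symbol is 1 of these 10. The family itself was selected on measured values, because the knockout and wild-type signals of Cyp2c37 and Cyp2c39 were already known to lie far apart on these arrays. The signals of the members are therefore a description. Which members passed the threshold of the fit over all probe sets is stated only to place them in that fit; it is no independent test of them, and no support is drawn from it. Of the 10 genes, 9 had a probe set, each exactly 1, among 7164 named genes and 11811 probe sets in all, while Cyp2c40 is not analysed here. None of the 9 probe sets carried several symbols. Every one passed the filter on low signals described below.

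The arrays carried total liver RNA of 3 samples labelled ATP7B KO mouse and 3 labelled wild type (WT), with 1 Affymetrix array per sample, and the title places the study early in copper accumulation in a model of Wilson disease. Atp7b encodes the copper-transporting ATPase that hepatocytes use to load copper on proteins and to pass it into bile. Samples are called KO903, KO904 and KO905 and WT4, WT5 and WT6, after their labels. The source labels cite an earlier publication for the knockout line, and no strain, sex, age or diet is given in the sources used here. Since no source says that the samples of a group are separate animals, the p-values below measure only the spread between these samples, which may be technical. The targeted gene, read from 1 probe set, had signals of 241, 232 and 185 in KO903, KO904 and KO905, against 259, 299.7 and 241 in WT4, WT5 and WT6 (log2 difference -0.27 ± 0.16 (SE); limma adjusted p = 0.407). The position of its probes in Atp7b was not compared with the part that was disrupted, so it does not check the genotype. Array medians were 330.8 to 342.8. Hepatocyte markers were at high signal on all arrays, and of the 7 tested limma called 0, with 1 at an unadjusted p under 0.05.

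Cyp2c enzymes are membrane-bound monooxygenases of the endoplasmic reticulum that receive electrons from P450 reductase. In mouse liver they oxidise drugs and endogenous lipids, above all arachidonic acid, which different members turn into epoxides or hydroxylated fatty acids. Their transcription in liver is known to depend on HNF4alpha and on the xenobiotic receptors CAR (Nr1i3) and PXR (Nr1i2). Values below are MAS 5.0 signals on the linear scale. Differences are knockout minus wild type on log2(signal + 16), with limma's moderated standard error, and "called" means an adjusted p under 0.05 over all 10620 tested probe sets.

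In the knockout livers Cyp2c37, Cyp2c50, Cyp2c68, Cyp2c54 and Cyp2c55 were lower and Cyp2c39 was higher, and these 6 were the called members. Cyp2c29, Cyp2c38 and Cyp2c70 were not called. Over all tested probe sets 4.14% were called, 2.05% as higher and 2.09% as lower in the knockout, against 1 higher and 5 lower of the 9 members. In 7 of the 9 the knockout arrays did not overlap the wild-type arrays, 2 above and 5 below them. Such separation was found in 23.6% of all tested probe sets, 13.2% above and 10.4% below. Since the family was chosen with this contrast known, nothing is read from these shares. The median difference was -0.77 on the log2 scale over the 9 members and 0.03 over all tested probe sets. In bulk RNA, fewer cells that express a gene and less of its RNA per cell cannot be told apart.

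**Figure D1:**
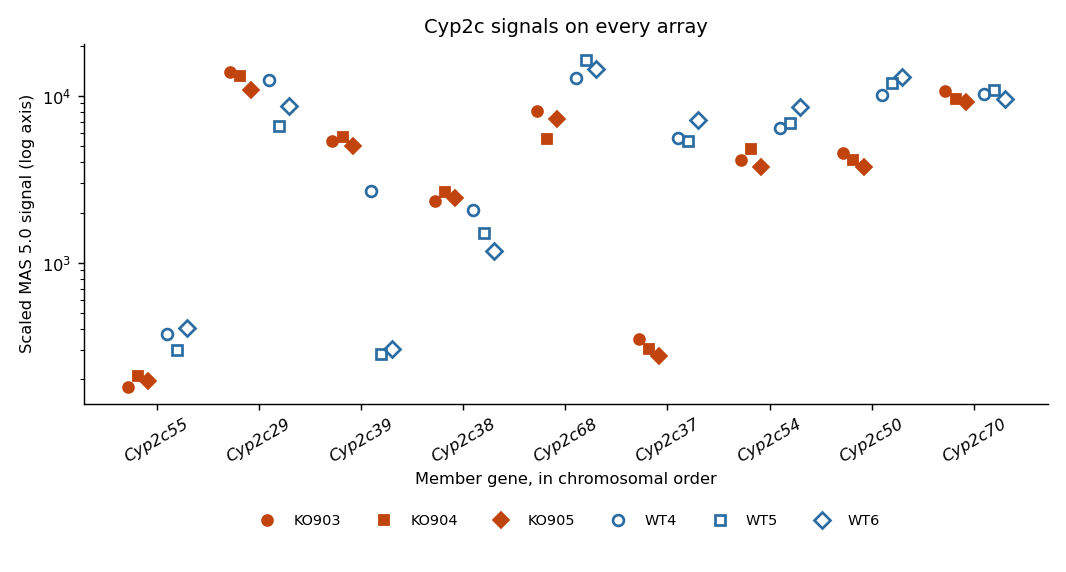
Scaled MAS 5.0 signal (log axis) of the 9 measured Cyp2c members on each array, in their order along the chromosome; filled red symbols are the 3 Atp7b knockout arrays and open blue symbols the 3 wild-type arrays. The groups are farthest apart for Cyp2c37, with signals of 278 to 349 in the knockout and 5386 to 7138 in wild type, and the wild-type arrays are farthest apart for Cyp2c39. Heights are not comparable between genes.

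Cyp2c37, which in mouse converts arachidonic acid to a hydroxylated fatty acid and is inducible by phenobarbital, had signals of 349, 305 and 278 in KO903, KO904 and KO905, against 5609, 5386 and 7138 in WT4, WT5 and WT6. The lowest wild-type signal was 15.4 times the highest knockout signal, and both groups were even, with standard deviations of 11.7% of the mean in the knockout and 15.8% in wild type. The log2 difference was -4.21 ± 0.14 (SE), the largest decrease of any tested probe set. Its values therefore lay in 2 compact groups, with no intermediate array.

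Cyp2c50, which epoxidises arachidonic and linoleic acid in mouse, had signals of 4525, 4100 and 3757 in KO903, KO904 and KO905, against 10085, 11878 and 12998 in WT4, WT5 and WT6. All knockout arrays were below all wild-type arrays, the closest pair differing 2.23 times, and the log2 difference was -1.49 ± 0.12 (SE). Cyp2c54, a close relative with the same 2 substrates in mouse, had signals of 4119, 4801 and 3766 in the knockout, against 6390, 6861 and 8524 in wild type. Its groups were closer, with 1.33 times between the nearest arrays and a log2 difference of -0.77 ± 0.13 (SE).

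Cyp2c68 had signals of 8162, 5504 and 7280.1 in KO903, KO904 and KO905, against 12820, 16315 and 14391 in WT4, WT5 and WT6. KO904 was the lowest of the 6 and the groups did not overlap. The log2 difference was -1.07 ± 0.14 (SE), and the knockout arrays varied more here than for any other member, with a standard deviation of 19.4% of the mean. Cyp2c55, an arachidonic acid hydroxylase of mouse liver, kidney and gut, had signals of 179, 211 and 197 in the knockout, against 377, 299.2 and 405 in wild type. Again the groups did not overlap (log2 difference -0.82 ± 0.15 (SE)). Without KO903, WT4 or WT6 Cyp2c55 was no longer called, while its difference stayed between -0.95 and -0.70 under every alternative run.

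Cyp2c39, which hydroxylates retinoic acid in mouse liver, had signals of 5367, 5633 and 5032 in KO903, KO904 and KO905, against 2693, 283 and 305 in WT4, WT5 and WT6. The knockout arrays were close together, with a standard deviation of 5.63% of their mean, while WT4 lay between them and the other two wild-type arrays, 9.51 times above WT5. The log2 difference was 3.07 ± 0.64 (SE), the largest increase of any tested probe set, and only 1 tested probe set had a larger standard error. It was 4.11 without WT4. Without KO903, KO904, KO905 or WT6 the probe set was no longer called, with differences of 2.52 or more under every alternative run.

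Cyp2c38, an arachidonic acid epoxygenase in mouse, had signals of 2359, 2654 and 2451 in the knockout, against 2063, 1499 and 1180.1 in WT4, WT5 and WT6. The groups did not overlap, but the highest wild-type array reached to within 1.14 times of the lowest knockout array. The log2 difference of 0.68 ± 0.17 (SE) missed the threshold, and it passed under 5 of the 14 alternatives. Cyp2c29, an abundant arachidonic acid epoxygenase of mouse liver and a classical CAR target, had signals of 13834, 13195 and 10846 in the knockout, against 12461, 6554 and 8657 in WT4, WT5 and WT6. WT4 lay inside the knockout range, so the groups overlapped, and the log2 difference was 0.49 ± 0.19 (SE), not called. The value for Cyp2c29 rested on single wild-type arrays, at 0.74 and called without WT4 but 0.27 and not called without WT5. Cyp2c38 was at 0.89 and called without WT4.

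Cyp2c70, which makes the muricholic acids of mouse bile, had signals of 10616, 9571 and 9174 in the knockout, against 10233, 10780.2 and 9618 in wild type. These ranges overlapped almost fully, with a log2 difference of -0.06 ± 0.09 (SE). Cyp2c23, also known as Cyp2c44 and placed apart from the cluster on the same chromosome, had signals of 6015, 5198 and 5279 in the knockout, against 6749.8, 6742 and 5281 in wild type. It was read from a probe set that Affymetrix marks as shared by several transcripts, and was not called (log2 -0.18 ± 0.12 (SE); limma adjusted p = 0.474).

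WT4 lay toward the knockout arrays in several members. For Cyp2c29, Cyp2c38 and Cyp2c39 the WT4 value exceeded the mean of WT5 and WT6 by 0.73, 0.63 and 3.13 on the log2 scale. For Cyp2c50, Cyp2c54 and Cyp2c68, which were lower in the knockout, WT4 lay below the mean of WT5 and WT6, at -0.30, -0.26 and -0.26. WT4 was thus the wild-type array nearest to the knockout mean in 6 of the 9 members, against 33.4% of all tested probe sets and 29.8% of those called. For Cyp2c37 and Cyp2c55 the nearest array was WT5, and for Cyp2c70 it was WT6. The members are neighbouring relatives, so these 6 are not independent of each other. For Cyp2c54 WT4 (6390) was close to WT5 (6861), and WT6 (8524) lay apart from both. Why WT4 was the nearest for these members was not tested.

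**Figure D2:**
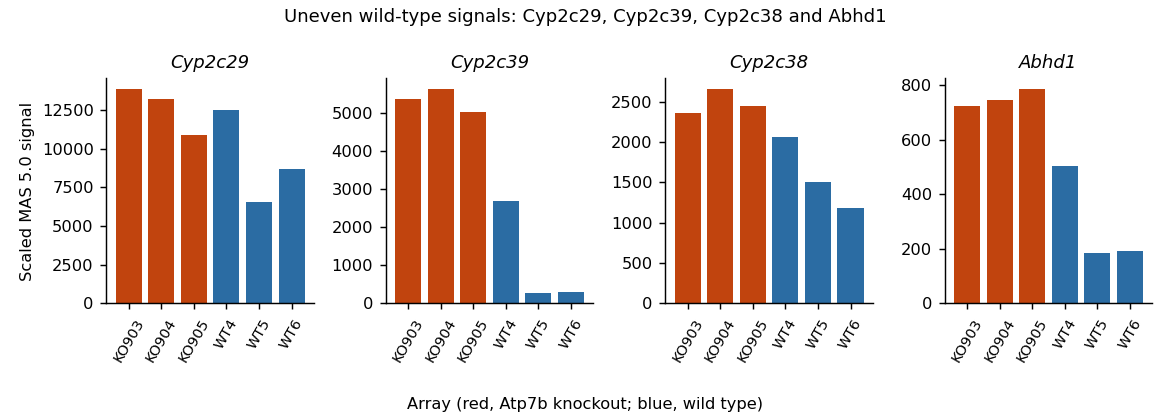
Scaled MAS 5.0 signal of Cyp2c29, Cyp2c39, Cyp2c38 and the non-member Abhd1 on each array, with 1 bar per array, knockout in red and wild type in blue, and each vertical axis starting at 0. In all 4 panels WT4 is the highest wild-type array, and for Cyp2c29 its signal of 12461 is above that of KO905 (10846).

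In the RefSeq gene order of assembly GRCm38.p6, used here for order only, the first measured member was Cyp2c55, followed by Cyp2c29, Cyp2c39, Cyp2c38, Cyp2c68, Cyp2c37, Cyp2c54, Cyp2c50 and Cyp2c70. The 3 members with differences above 0 were consecutive among the measured genes, and the 4 after them, Cyp2c68, Cyp2c37, Cyp2c54 and Cyp2c50, were all lower. RefSeq lists 2 starts for Cyp2c39, 1 on either side of the start of Cyp2c38. Outside the cluster, the 3 nearest tested genes on the Cyp2c55 side were Noc3l, Plce1 and Rbp4 and on the Cyp2c70 side Pdlim1, Aldh18a1 and Tctn3. None of these 6 was called by limma (3 on each side; log2 differences from -0.44 for Plce1 to 0.44 for Noc3l), and of the 6, 2 had an unadjusted p under 0.05.

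**Figure D3:**
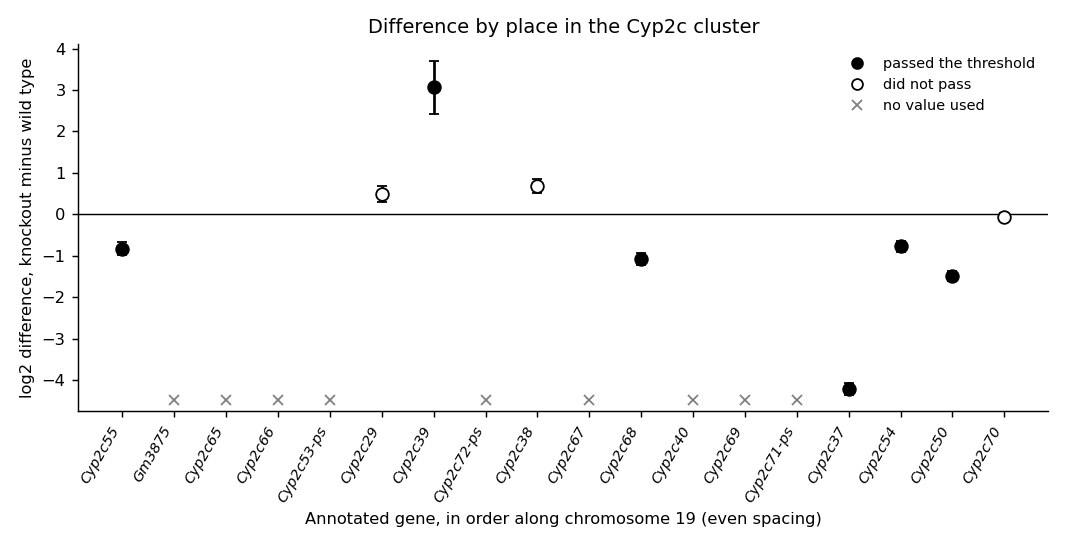
log2 difference, knockout minus wild type, with limma's standard error as bars, for the annotated genes of the Cyp2c cluster in their order along chromosome 19, evenly spaced; filled circles were called, open circles were not, and crosses along the bottom mark genes with no value used here. Cyp2c29, Cyp2c39 and Cyp2c38 lie above 0 next to each other, and Cyp2c68, Cyp2c37, Cyp2c54 and Cyp2c50 lie below it.

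The 250 bases before the annotated start were read from RefSeq (GRCm38.p6) for the members of these neighbouring sets. Of these, Cyp2c38 and Cyp2c29 were not called. The upstream sequences are those of genes that lie side by side with differences of opposite sign. They are written 5′ to 3′ on each gene's own strand. Capitals mark CAAAGTNNA, the core letters of an HNF4alpha-type element, searched on both strands. For Cyp2c39 the window at the first listed start is shown. Cyp2c37 is at chr19:39992174-39992423 (+), Cyp2c50 at chr19:40089429-40089678 (+), Cyp2c68 at chr19:39741102-39741351 (-), Cyp2c39 at chr19:39347096-39347345 (+), Cyp2c38 at chr19:39463076-39463325 (-) and Cyp2c29 at chr19:39286835-39287084 (+). Cyp2c54 is not shown.
Cyp2c37: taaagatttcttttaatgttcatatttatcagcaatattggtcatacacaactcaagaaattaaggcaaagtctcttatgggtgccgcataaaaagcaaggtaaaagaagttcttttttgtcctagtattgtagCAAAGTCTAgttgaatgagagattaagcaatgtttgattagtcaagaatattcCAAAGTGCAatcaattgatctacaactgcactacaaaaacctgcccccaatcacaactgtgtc
Cyp2c50: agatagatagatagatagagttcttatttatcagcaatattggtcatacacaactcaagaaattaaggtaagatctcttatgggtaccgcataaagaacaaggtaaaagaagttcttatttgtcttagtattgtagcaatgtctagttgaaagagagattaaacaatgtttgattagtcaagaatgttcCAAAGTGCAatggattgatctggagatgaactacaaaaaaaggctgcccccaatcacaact
Cyp2c68: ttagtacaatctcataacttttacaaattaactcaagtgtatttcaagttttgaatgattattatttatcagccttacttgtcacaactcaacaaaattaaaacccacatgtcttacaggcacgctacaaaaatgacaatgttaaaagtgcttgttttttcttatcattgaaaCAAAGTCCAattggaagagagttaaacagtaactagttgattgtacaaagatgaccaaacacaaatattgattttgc
Cyp2c39: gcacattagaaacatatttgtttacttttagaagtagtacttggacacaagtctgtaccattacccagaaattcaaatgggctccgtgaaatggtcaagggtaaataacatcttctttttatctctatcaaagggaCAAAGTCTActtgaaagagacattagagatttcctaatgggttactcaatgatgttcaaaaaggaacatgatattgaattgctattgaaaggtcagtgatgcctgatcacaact
Cyp2c38: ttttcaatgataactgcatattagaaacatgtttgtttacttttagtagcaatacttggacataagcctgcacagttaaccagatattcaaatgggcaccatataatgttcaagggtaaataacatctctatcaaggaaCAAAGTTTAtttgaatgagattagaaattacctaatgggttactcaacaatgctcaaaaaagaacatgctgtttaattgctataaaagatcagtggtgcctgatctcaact
Cyp2c29: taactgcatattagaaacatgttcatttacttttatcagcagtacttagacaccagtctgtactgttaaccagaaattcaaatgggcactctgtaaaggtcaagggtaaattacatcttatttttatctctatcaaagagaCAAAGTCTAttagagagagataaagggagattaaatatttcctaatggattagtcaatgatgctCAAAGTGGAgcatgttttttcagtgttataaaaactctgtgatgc

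Among the 9 members with a window, which leave out Cyp2c54, the pair with the most similar windows was Cyp2c37 and Cyp2c50, with 84.3% of aligned positions identical, gaps counted as differences, although their log2 differences were -4.21 and -1.49. The first Cyp2c39 window was 75.8% identical to that of Cyp2c38 and 74.1% to that of Cyp2c29. Identity was lower between genes with differences of opposite sign, at 49.3% (Cyp2c39 and Cyp2c68) to 58.4% (Cyp2c39 and Cyp2c50). This range covers the 9 pairs of Cyp2c39 (first start), Cyp2c38 or Cyp2c29 with Cyp2c37, Cyp2c50 or Cyp2c68. Cyp2c38 and Cyp2c29 were not called, so only the pairs with Cyp2c39 joined called genes on both sides. The second Cyp2c39 window was 71.0% identical to that of Cyp2c38 and 68.1% to that of Cyp2c29. Its identity was 58.6% with Cyp2c68, 51.7% with Cyp2c37 and 51.6% with Cyp2c50. Identity was also low between Cyp2c68 and Cyp2c37 or Cyp2c50, at 49.5% each, although all of these were lower in the knockout. CAAAGTNNA occurred in 8 of the 9 member genes with a window, Cyp2c55 being the exception, against 3.57% of all 32851 promoter windows of this length. The stricter CAAAGTCCA, which is 1 of the forms of that motif, occurred in Cyp2c68, Cyp2c70 and the unmeasured Cyp2c40, against 0.384% of all windows. Cyp2c37 held CAAAGTNNA at 116 and 63 bases before the start, and Cyp2c50 only the nearer one, at 61 bases. The element thus occurred in members that were lower, higher and not called alike. Windows were up to 84.3% identical between members, so these matches are not independent of each other. Nothing is read from the shares. A match is a run of letters and does not show binding.

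Outside the family, the genes with the array pattern most like each called member were taken as the 3 with the smallest root mean square difference of centred log2 values over the 6 arrays. These are descriptions, since they were picked for likeness on the same arrays. The values were centred but not scaled, so this distance also grows with a gap in the size of the difference. Cyp2c37 and Cyp2c39 had the largest decrease and increase of any tested probe set. No other gene could match them in size, so their larger distances do not show a distinct array pattern. For Cyp2c37 the closest were Adi1 of methionine salvage (0.77), the racemase gene Amacr (0.93), and the HMG-CoA synthase gene Hmgcs1 (1.04). Cyp2c39 was closest to Abhd1 (1.01), the securin gene Pttg1 (1.02) and the nucleotide pyrophosphatase gene Enpp3 (1.07). Enpp3 had low signals in wild type, of 52, 25 and 49 in WT4, WT5 and WT6. Abhd1 shared its raised WT4, with signals of 724, 744 and 785 in the knockout, against 505, 187 and 192 in WT4, WT5 and WT6.

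The other called members, with smaller differences, had genes at smaller distances. For Cyp2c50 they were the cohesin acetyltransferase gene Esco1 (0.10), the kinase gene Riok3 (0.16) and the mitochondrial protease gene Lonp1 (0.19). Esco1 and Riok3 had signals under 100 on every knockout array (67 to 86 and 71 to 85). How close such low signals come depends on the pseudocount. With a pseudocount of 1 or 64 the difference of Esco1 was -1.73 or -1.19, while that of Cyp2c50 was -1.49 or -1.48. Cyp2c54 was most like the phosphatidate phosphatase gene Lpin2 (0.11), Abhd15 (0.12) and the PAR-domain transcription factor gene Tef (0.13). For Cyp2c55 they were the alanine transaminase gene Gpt2 (0.09), the scaffold gene Homer2 (0.10) and the syndecan gene Sdc2 (0.11). Cyp2c68 was most like a probe set of the growth factor receptor gene Egfr (0.14), Parp3 (0.14) and Phlda1 (0.16). Parp3 too had low knockout signals, of 106, 75 and 111 in KO903, KO904 and KO905. The brightest probe set of Egfr, with a log2 difference of -0.24, was not called. Among the members themselves the closest pair was Cyp2c54 and Cyp2c55 (0.15), and the next was Cyp2c29 and Cyp2c38 (0.26).

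Genes that regulate or work with the family were examined as lists. Of the nuclear receptors and liver factors that act on Cyp2c genes, 3 of 16 tested fell and none rose, against 1.8% of all 6604 tested genes called lower, 2.14% called higher and 3.94% in all. The list's median log2 difference was -0.23, against 0.03 over all tested genes, and 5 of the 16 had differences above 0. In 7 of the 16 the groups did not overlap, all with the knockout below wild type. Among all tested probe sets, 10.4% were separated in that direction and 23.6% in either. The list was chosen with earlier results of these data known, so nothing is read from these shares. Cebpb and Cebpa, singled out after their values were seen, had all knockout arrays below all wild-type arrays and narrowly missed the threshold. Their log2 differences were -0.62 (limma adjusted p = 0.0556) and -0.40 (limma adjusted p = 0.0539). Ppara, the fatty acid receptor, had signals of 1233, 1390.2 and 1067 in KO903, KO904 and KO905, against 2380, 2374 and 3250 in WT4, WT5 and WT6 (log2 -1.10 ± 0.15 (SE); limma adjusted p = 0.00258). The dioxin receptor gene Ahr fell by 0.59 on the log2 scale (limma adjusted p = 0.0404), though its other probe set did not (log2 -0.10, adjusted p = 0.826). The bile acid receptor gene Nr1h4 fell by 0.52 (limma adjusted p = 0.0468). The calls of Ahr and Nr1h4 each ended when KO903, KO904, KO905, WT4 or WT6 was left out (adjusted p up to 0.139 and 0.147).

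CAR and PXR themselves were not called. Nr1i3, which encodes CAR, had signals of 1749.5, 1878 and 1362 in the knockout, against 1459, 1366 and 1779 in wild type (log2 0.11 ± 0.15 (SE); limma adjusted p = 0.76). Nr1i2, which encodes PXR, gave a log2 difference of -0.31 ± 0.19 (SE; limma adjusted p = 0.448). Hnf4a had signals of 2982, 2909 and 2950 in the knockout, against 3664, 3224 and 3375 in wild type. Its groups did not overlap, but the log2 difference of -0.21 ± 0.10 (SE) was not called (limma adjusted p = 0.282). The glucocorticoid receptor gene Nr3c1 gave -0.19 ± 0.13 (SE; limma adjusted p = 0.495).

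Limma called 0 of 13 tested CAR and PXR target genes outside the family (4 at an unadjusted p under 0.05), with a median log2 difference of -0.05. In 3 of the 13 the groups did not overlap, against 23.6% of all tested probe sets. Abcc2 (log2 -0.82, limma adjusted p = 0.0572) and Cyp3a13 (log2 -0.27, limma adjusted p = 0.261) lay below wild type. Abcb1a (log2 0.50, limma adjusted p = 0.102) lay above it. Cyp2b10, the P450 most used as a readout of CAR, had signals of 412, 344 and 328 in the knockout, against 277, 333 and 226 in wild type. KO905 lay below WT5, so the groups overlapped (log2 0.37 ± 0.16 (SE); limma adjusted p = 0.274). Cyp3a11, the usual readout of PXR, ranged from 13138 to 15563 in the knockout, against 13869 to 16637 in wild type. Its log2 difference was -0.05 ± 0.10 (SE; limma adjusted p = 0.856).

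Among genes that supply P450 enzymes with heme and electrons, 1 of 6 tested fell. This was Alas1, the rate-limiting enzyme of heme synthesis, with signals of 2320, 3545 and 3342 in the knockout, against 5905, 7898 and 5805 in wild type (log2 -1.10 ± 0.17 (SE); limma adjusted p = 0.00552). The other 5 gave log2 differences from -0.25 (Cyb5r3) to 0.23 (Hmox1). Por, the gene of P450 reductase, had no value used here. A further probe set of Alas1 was not called (log2 -0.79, adjusted p = 0.219).

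None of 9 tested arachidonic acid P450s, cyclooxygenases and epoxide hydrolases was called by limma (1 at an unadjusted p under 0.05), and their differences spanned -0.23 to 0.30. Ephx2, the soluble hydrolase that breaks down the epoxides made by Cyp2c enzymes, gave a log2 difference of 0.08 ± 0.10 (SE; limma adjusted p = 0.761). Ephx1, the microsomal hydrolase, gave 0.30 ± 0.12 (SE; limma adjusted p = 0.222). Among 12 tested genes of retinoid metabolism, 1 fell and the median was -0.01. It was Cyp26a1, the main retinoic acid hydroxylase, with signals of 389, 391 and 353 in the knockout, against 1008, 736 and 549 in WT4, WT5 and WT6 (log2 -0.95 ± 0.19 (SE); limma adjusted p = 0.0203). Its groups did not overlap, and WT4 was its highest array. The call ended without KO903, KO904, KO905 or WT4 (adjusted p up to 0.0793).

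In the list around bile acid hydroxylation, the setting of Cyp2c70, 2 of 11 tested genes fell and 1 rose, with a median of -0.05. Cyp7a1, which starts the classical pathway of bile acid synthesis, had signals of 821, 2035 and 1118 in the knockout, against 5667, 3149 and 5315 in wild type (log2 -1.87 ± 0.30 (SE); limma adjusted p = 0.00625). Amacr, needed to shorten the side chain of bile acid precursors, fell by 2.37 (limma adjusted p = 6.04e-05) and Cyp7b1, the oxysterol hydroxylase of the alternative pathway, rose by 1.33 (limma adjusted p = 0.00487).

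**Figure D4:**
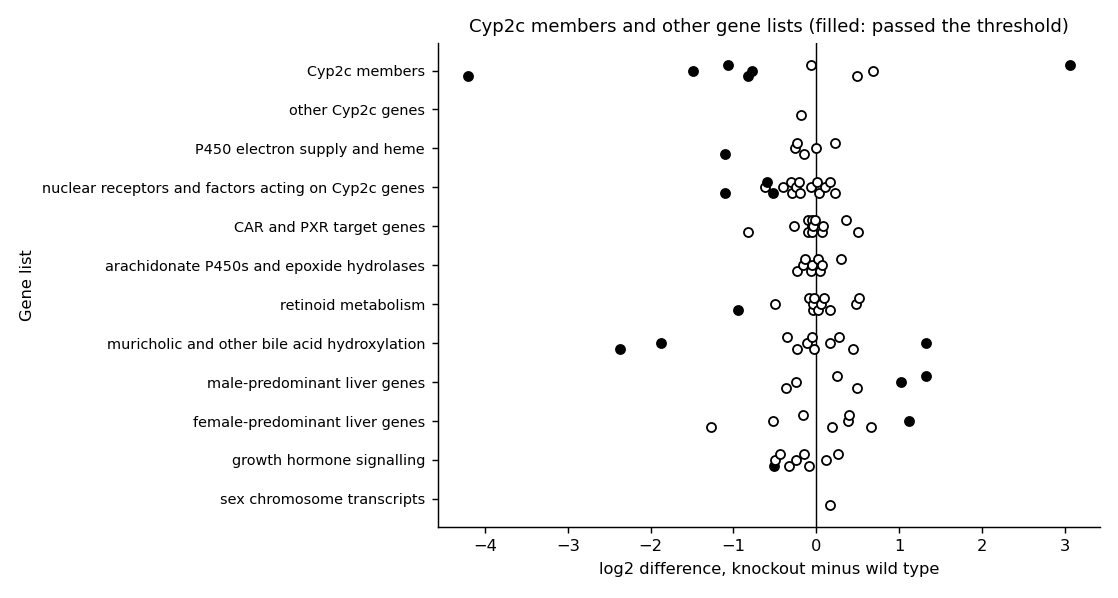
log2 differences, knockout minus wild type, of the 9 Cyp2c members (top row) and of the tested genes of 11 other lists, 1 point per gene with small vertical offsets to separate points; filled points were called and open points were not. The members span -4.21 to 3.07, while the 13 tested CAR and PXR target genes span -0.82 to 0.50.

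Many mouse liver P450 genes differ between the sexes under control of growth hormone, and the labels give no sex. Of 6 tested male-predominant genes 2 rose, Cyp7b1 and Cyp2d9. Cyp2d9 had signals of 3501, 4325 and 3712 in the knockout, against 2131, 2184 and 1419 in wild type (log2 1.02 ± 0.16 (SE); limma adjusted p = 0.00625). Of 8 tested female-predominant genes 1 rose, Prom1 (log2 1.12 ± 0.19 (SE); limma adjusted p = 0.00828). The female-predominant Cyp17a1, singled out after its values were seen, was at -1.28, not called (limma adjusted p = 0.12). It was the lowest of its list. Differences were above 0 in 5 of the 8 female-predominant genes (median log2 0.28) and in 4 of the 6 male-predominant genes (median log2 0.37). Xist, the RNA of the inactive X chromosome, had signals of 4284, 3617 and 3887 in the knockout, against 2943, 4048 and 3529 in wild type on its brightest probe set. The groups overlapped, and no array stood near 0. Its other 2 probe sets had differences of -0.53 and -0.61, with all knockout arrays below all wild-type arrays, and were not called either. Of the 5 sex chromosome transcripts listed, Xist was the only 1 with a value used here, so no Y-linked transcript was read. Of 9 tested growth hormone signalling genes 1 fell, Igfals (log2 -0.51 ± 0.12 (SE); limma adjusted p = 0.0359), a call lost without KO903, KO904, KO905, WT4 or WT6 (adjusted p up to 0.133), and Stat5b was at 0.27 ± 0.18 (SE; limma adjusted p = 0.491).

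Several Cyp2c genes are expressed mainly around the central vein, so zonal markers were set beside them. Of 10 tested pericentral markers 1 fell, Glul (log2 -0.40 ± 0.09 (SE); limma adjusted p = 0.04). Its other probe set was not called (log2 -0.13), and its call ended when any 1 array was left out (adjusted p up to 0.134). Summed over the list, pericentral signal was 40737 to 43977 in the knockout, against 40713 to 43326 in wild type. Such sums are weighted to the brightest markers, here Cyp2e1, Cyp1a2 and Oat. In 3 of the 10 the groups did not overlap, against 23.6% of all tested probe sets. Glul lay below wild type, while Slc1a2 (log2 0.50) and Lect2 (log2 0.25), neither of them called, lay above it. Of 8 tested periportal markers Hal rose (log2 0.56 ± 0.13 (SE); limma adjusted p = 0.0338) and Cyp2f2 fell (log2 -0.37 ± 0.08 (SE); limma adjusted p = 0.0332), with sums of 58957 to 60259 in the knockout, against 59750.3 to 65940 in wild type. Leaving out 1 array ended the call of Hal for KO903, KO904, KO905 or WT4 (adjusted p up to 0.128) and that of Cyp2f2 for any of the 6 (up to 0.112).

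Limma called 0 of the tested markers of Kupffer, endothelial, stellate and lymphoid cells, with 3, 5, 0 and 1 at an unadjusted p under 0.05. All 8 tested Kupffer cell markers had differences above 0 (median 0.32), with sums of 5634 to 7592 in the knockout, against 4172 to 5756 in wild type. Endothelial markers were above 0 in 7 of 8 (median 0.24), with sums of 4218 to 5553 in the knockout, against 3395 to 4016 in wild type. Of the stellate cell list 3 of 6 markers in the table were tested (sums of 5025 to 5917 in the knockout, against 4302 to 5978 in wild type), and of the lymphocyte list 2 (312 to 332 in the knockout, against 233 to 295 in wild type). No marker signal was at 0 on any array. The part of these cells in the Cyp2c differences was not tested.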

How the data were processed

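Per the labels' protocols, liver RNA was purified with TRIzol and an RNeasy Mini kit, and an Enzo kit was used for labelling. The authors deposited linear intensity values, which per the labels are MAS 5.0 signals scaled on each array to a target average of 350. The sources used here do not say how the 11811 probe sets were selected, and detection calls were not used. MAS 5.0 subtracts mismatch signal, so low signals are noisy; probe sets of close Cyp2c relatives may also pick up each other's RNA, which was not tested. The number of arrays limits the precision.

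Values were taken as log2(signal + 16), which understates changes of low signals. Leaving out 33 control probe sets and 1158 with a mean signal under 100 left 10620. They were fitted with limma 3.58.1 in R 4.3.3 (lmFit, eBayes with a trend, two-sided, p-values adjusted by Benjamini-Hochberg across the whole tested table, threshold 0.05), tested on simulated data. No samples were paired, since the numbers of the groups do not match. An exact permutation test of 3 against 3 cannot go below 0.1. Symbols came from the platform annotation (10776 probe sets with 1 symbol, 418 with several, 584 with none), and a gene outside the family was read from its brightest tested probe set. The genes named by rule were all members, up to 6 called genes per list, genes named for their role, the nearest cluster neighbours and the 3 most alike genes per called member. Cyp2c23 was the only tested gene of its list. Cebpa, Cebpb, Cyp17a1, Cyb5r3, Hmox1, Abcc2, Cyp3a13, Abcb1a, Slc1a2 and Lect2 were named after their values were seen. Members, 11 gene lists and 8 marker lists were chosen with earlier results of these data known. Of the marker lists the cholangiocyte list had no gene in the table. Promoters came from RefSeq tables (GRCm38.p6), aligned with Biopython 1.88. Figures were drawn with matplotlib 3.10.9 in Python 3.11.15.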

Additional observations from a re-analysis of the deposited data

How the results depend on the processing

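The alternatives were quantile normalization, median centring, a pseudocount of 1 or 64, no signal filter, a minimum mean signal of 200, eBayes without a trend, array weights and leaving out each sample. Of 126 member values recomputed, 113 kept their direction and their side of the threshold, and no member reversed, which describes the same arrays that chose the family. The number of members called higher, 1 in the report, was 2 with quantile normalization, a pseudocount of 64, no filter or a minimum of 200, Cyp2c38 then passing as well. It ranged from 0 to 3 with 1 sample left out (0 without KO903, KO904, KO905 or WT6 and 3 without WT4). The number called lower, 5, was 4 or 5 throughout. Of 136 list genes 4 were called higher (3 to 7 with 1 sample left out, 7 without WT5) and 10 lower (5 with eBayes without a trend, where Ahr, Nr1h4, Igfals, Glul and Cyp2f2 no longer passed; 4 to 9 with 1 sample left out, at most 5 without any except WT5). Over all tested probe sets 440 were called, against 313 without a trend and 175 to 475 with 1 sample left out. Centring on the median gave 186 higher and 267 lower calls, against 218 and 222. Reversals were confined to uncalled genes outside the family: Cyp3a11 (-0.12 to 0.033 with 1 sample left out), Rbp4 (-0.0085 after centring, -0.045 to 0.13 with 1 left out), Tctn3 (-0.033 to 0.27 with 1 left out) and Xist (-0.32 with the mean over its probe sets, 2 of which had signals lower in the knockout). The cause of these changes was not tested. No paired analysis was possible because the groups share no replicate number.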
